A study of Mus musculus with 68 samples.

Results

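Apical progenitors (APs) from neurospheres were compared, gene by gene, with APs taken directly from the E12 cerebral cortex of the mouse. The comparison rests on 6 cells of the 68 in the series, 3 from neurospheres (cell_W2G, cell_W2O and cell_W6D) and 3 from E12 tissue (cell_103L, cell_105M and cell_109B), chosen by their labels alone. Each cell was lysed on its own, its cDNA was amplified, and the product was hybridized to 1 whole-genome Affymetrix array. The other cells are 30 from E11, 28 from E16 and 4 from E14 that had received active Notch and p18 by electroporation.

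All 6 cells came from the dorso-lateral cerebral wall of wild-type CD1 mice. The E12 cells were dissociated with trypsin and picked at once. The neurosphere cells had been dissociated at E11 and then kept for 3 days in suspension, in DMEM/F12 with N2, B27, N-acetylcysteine, 20 ng/ml FGF2 and 20 ng/ml EGF. The neurospheres were then dissociated with trypsin as well, and single cells were picked from them. The neurosphere cells were thus older than the E12 cells by the clock, and culture, growth factors and age cannot be told apart in this comparison. In both groups, cells were picked at random, and those whose amplified cDNA was positive for Ki67, Ttyh1, Sox2 and Pax6 and negative for Tbr2 by quantitative PCR were taken as APs. The labels do not name the embryo or the culture of any cell, so each group was treated as 1 sample and no p-value was computed.

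APs are the stem cells that line the ventricle. As the cortex grows, they first multiply, then give rise to neurons of the deep and the upper layers, and later make glia. Neurospheres are floating clusters in which such cells keep dividing under FGF2 and EGF, growth factors that act through receptor tyrosine kinases and the ERK cascade. Sprouty and Dusp proteins, which damp that cascade, and the ETS factors Etv4 and Etv5 are among its best known transcriptional targets.

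The signals are Affymetrix intensities, quantile normalized over all 68 arrays and given on the log2 scale, and they compare 1 gene between cells, not different genes. As deposited, the 6 arrays had been scaled alike, to a mean of 500.0 with 2% trimmed off both ends, whereas this mean lay between 47.5 and 297.5 in the E11 and E16 arrays. The level that stands for 20 copies per cell, the median over 68 cells of the phe spike added at that dose, was 9.72. Between 2732 and 2813 genes reached this level in each of the 6 cells. The phe spike itself fell short of it in cell_103L (8.18), cell_W2G (9.57) and cell_W6D (3.71), so 20 copies were not always read. The spike at 1000 copies, lys, lay between 12.02 and 12.999 in all 6 cells.

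Some cells held markers at odds with their labels. The E12 AP cell_103L held Eomes, which encodes Tbr2, the defining factor of intermediate progenitors (IPs), at 11.75, whereas the other 5 cells lay between 1.24 and 4.35. Its second Eomes probe set, at 0.88, did not show this. The neurosphere AP cell_W6D held all 6 of 6 markers of oligodendrocyte precursors over the 20-copy level. These were Olig1 (13.64), Olig2 (13.39), Sox10 (11.58), Pdgfra (13.09), Cspg4 (10.21) and Gpr17 (11.02). No other cell of the 68 held more than 2 of them. In cell_W6D the cortical progenitor factors Pax6 (4.11), Sox1 (0.10) and Emx2 (4.22) were under the 20-copy level, as was Ttyh1 (7.97). Results are therefore also given without cell_103L and cell_W6D. The E12 AP cell_105M was kept in these results, but it too held such markers over the level. They were 1 of 9 markers of IPs, Neurog2 (12.03), and 3 of 8 of neurons, Tubb3 (10.02), Neurod6 (10.01) and Map2 (11.45). Map2 did not set it apart, with 10.67 in cell_103L, 10.20 in cell_109B, 12.59 in cell_W2O and 12.60 in cell_W6D. Of the same markers, cell_103L held Btg2 (10.16), as did cell_W6D (9.96), and Nefl (10.24).

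Markers of APs were otherwise common in all 6 cells. Of 15 AP markers, 11 were at 20 copies in cell_103L, 10 in cell_105M and 13 in cell_109B, and 12 in cell_W2G, 9 in cell_W2O and 7 in cell_W6D. Mki67, which marks dividing cells, and Sox2, a factor of neural stem cells, were over 20 copies in every cell. IP markers numbered 0 to 2 of 9 per cell and neuronal markers 1 to 3 of 8. None of the markers of astrocytes, microglia, vessels, blood, mesenchyme or Cajal-Retzius cells reached 20 copies in any of the 6 cells.

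**Figure D1:**
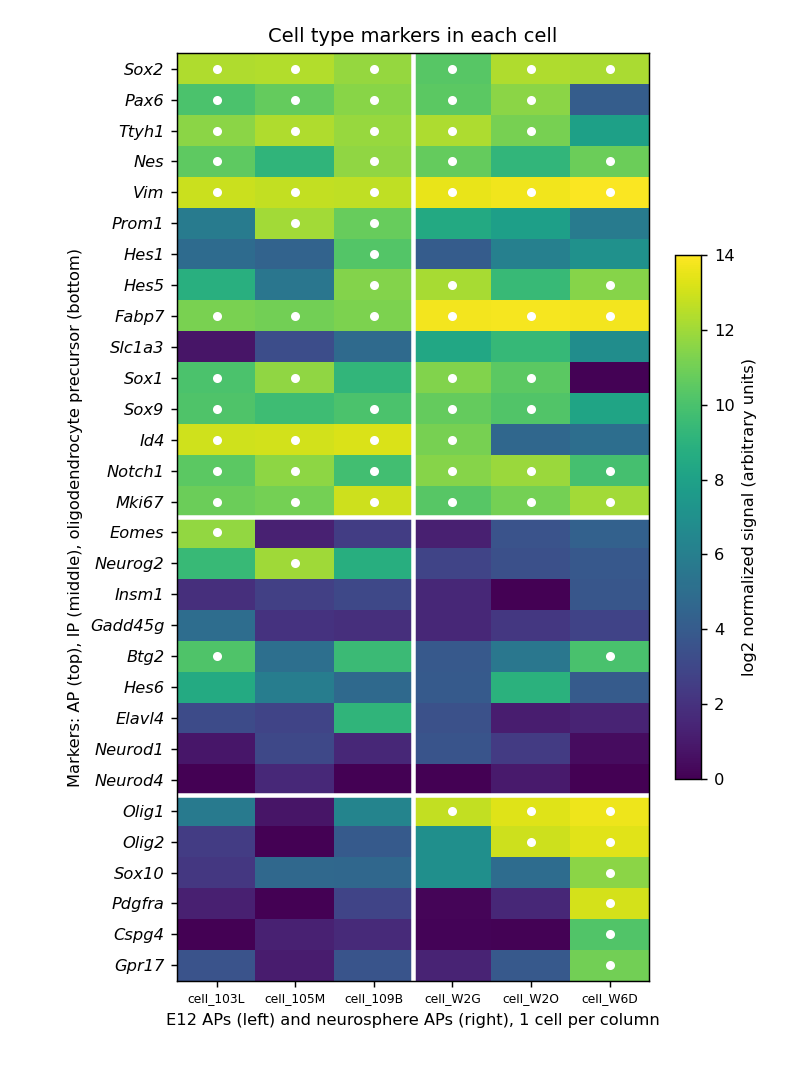
Log2 normalized signal (colour) of AP, IP and oligodendrocyte precursor markers (rows) in the 3 E12 APs and the 3 neurosphere APs (columns, 1 cell each), with a white dot where the signal reached the 20-copy level. Eomes has a dot only in cell_103L, and cell_W6D has one for all 6 oligodendrocyte precursor markers, whereas cell_W2G has one for Olig1 alone and cell_W2O for Olig1 and Olig2.

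Across the transcriptome the cells did not separate cleanly into 2 groups. Over 10789 genes, Pearson's r was 0.561 to 0.606 between E12 cells, 0.521 to 0.549 between neurosphere cells and 0.508 to 0.560 between cells of different groups. These are correlations across genes, which are not independent replicates. The median difference over all genes, neurosphere minus E12 APs, was -0.05 on the log2 scale.

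A gene was counted as higher or lower when the 3 cells of one group did not overlap with the 3 of the other and the means lay at least 2-fold apart, after signals under the 20-copy level had been raised to it. By this rule 89 of 10789 genes (0.825%) were higher in neurosphere APs and 103 (0.955%) were lower. Scaling each array to its lys spike in place of quantile normalization gave 146 higher and 43 lower genes, so that the share of higher genes among those counted moved from 46.4% to 77.2%, and it moved the median of all genes to 0.36. Without cell_103L and cell_W6D, with 2 cells a group, the rule counted 235 and 266 genes, among them 71 of the 89 and 82 of the 103. How many of these genes would differ between other cells of the same kinds was not tested.

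Most of these genes had a low signal in one of the groups. In 81 of the 89 genes and 92 of the 103, at least 1 cell of the lower group was under the 20-copy level, and the fold is then given as a minimum, with such cells set to that level. Of the genes lower in neurosphere APs, 33 were under it in all 3 neurosphere cells, 30 were over it in 1 cell, 29 in 2 and 11 in all 3. Of the genes higher there, 26 were under it in all 3 E12 cells.

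**Figure D2:**
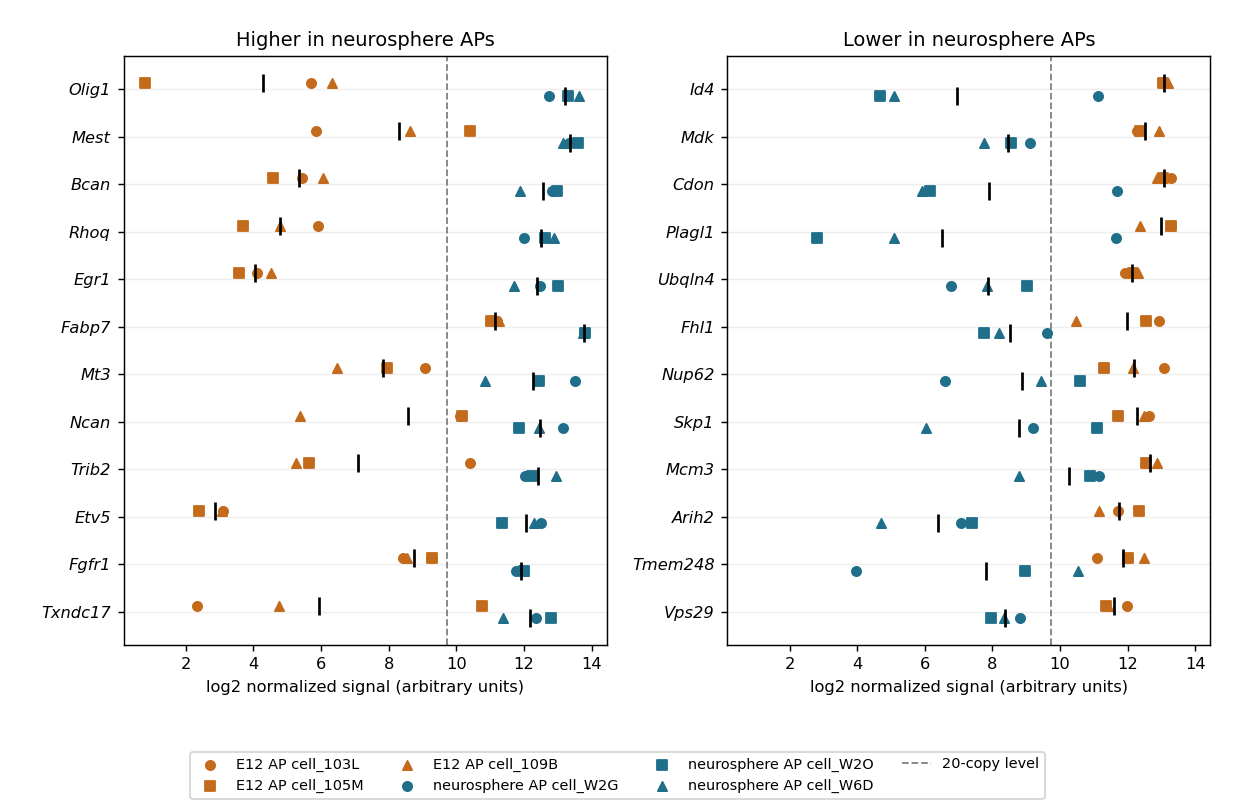
Log2 normalized signal (x axis) of the 12 genes with the largest difference in each direction, one point per cell, with black ticks for group means and a dashed line for the 20-copy level. In every gene shown the 3 neurosphere APs lie on one side of the 3 E12 APs, and cell_W2G lies closest to the E12 cells for Id4, Cdon and Plagl1.

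Targets of FGF and ERK signalling lay mostly on the higher side. Of 25 listed, 19 passed the filter on low signals, the means of 18 were higher in neurosphere APs, and 3 were counted as higher and none as lower, with a median difference of 3.02. Here and below, medians of lists use signals that were not raised to the 20-copy level. Myc, whose difference is this median, was under the level in all 6 cells (at most 9.38). So were Phlda1, Etv4, Il17rd, Spred2 and Rasl11a. Without cell_103L and cell_W6D the same 3 were counted and the median was 3.54. Spry4 and Dusp6 passed the filter through neurosphere cells alone, so that their direction was bound to be upward, and with no filter the median was 2.61. In number of listed genes at 20 copies, cell_W2G had 5, cell_W2O 10 and cell_W6D 9, and the E12 cells 1 or 2.

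Etv5, an ETS factor induced by FGF, had signals of 12.50 in cell_W2G, 11.34 in cell_W2O and 12.30 in cell_W6D, and of 3.10 in cell_103L, 2.40 in cell_105M and 3.06 in cell_109B. Every neurosphere cell thus held it well over 20 copies and no E12 cell did, a difference of at least 5.02-fold. Egr1, an immediate early transcription factor, had 12.48, 13.01 and 11.70 in the neurosphere cells, in the same order, against 4.10, 3.57 and 4.51 in the E12 cells, at least 6.39-fold. Few cells of the embryo held Egr1 at this level: 2 of 30 from E11 and 2 of 28 from E16. Etv5 reached it in 4 of 30 and 18 of 28. Of the 4 cells given active Notch and p18, 3 held Etv5 at this level and 0 held Egr1.

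Tnc encodes tenascin C, a matrix glycoprotein of radial glia. It had 13.06 in cell_W2G, 9.75 in cell_W2O and 10.65 in cell_W6D, against 2.69, 2.23 and 3.26 in the E12 cells. The groups were far apart but the neurosphere cells themselves were uneven, and the minimum of 2.71-fold was 1.40-fold without cell_W2G, too small for the gene to be counted, and 4.40-fold without cell_W2O. Tnc was at 20 copies in 0 of 30 E11 cells, 20 of 28 E16 cells and 4 of 4 cells given active Notch and p18.

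Feedback inhibitors of the cascade were high in some neurosphere cells and not in others. Spry1 had 12.07 in both cell_W2O and cell_W6D but 4.91 in cell_W2G, where it was as low as in the E12 cells (4.50 to 5.11). Dusp6, a phosphatase of ERK, had 10.34 in cell_W2O and 11.64 in cell_W6D, and -0.56 in cell_W2G. In cell_W2G, Dusp4, another such phosphatase, stood at 11.69, against 3.59 in cell_W2O and 1.05 in cell_W6D. Phlda1 lay between 9.28 and 9.53 in the 3 neurosphere cells and between 0.00 and 3.21 in the E12 cells, with all 6 under the 20-copy level.

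**Figure D3:**
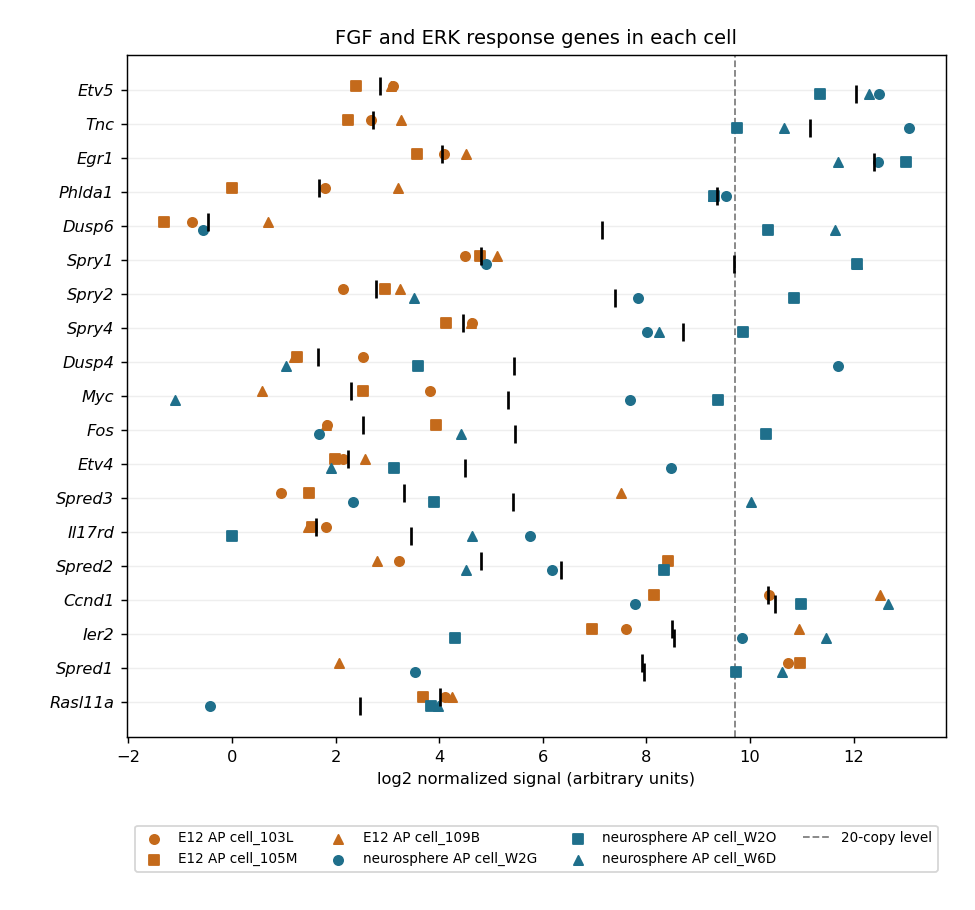
Log2 normalized signal (x axis) of the 19 listed FGF and ERK response genes past the filter, ordered by the difference of the group means (black ticks), one point per cell, with a dashed line for the 20-copy level. Etv5, Tnc and Egr1 are over the level in all 3 neurosphere APs and in no E12 AP, whereas Spry1, Dusp6 and Dusp4 are high in only some neurosphere APs.

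The receptors differed among themselves. Fgfr1, which binds FGF2, was even among the neurosphere cells at 11.76, 12.002 and 11.997, against 8.42, 9.28 and 8.54 in the E12 cells. All 3 neurosphere cells were over the 20-copy level and no E12 cell was, a difference of at least 4.60-fold. By the 2 other probe sets of Fgfr1, cell_W6D was under the level (9.60 and 4.29). Fgfr1 reached it in 22 of 30 E11 cells, 23 of 28 E16 cells and 3 of 4 cells given active Notch and p18. Fgfr2 was lower in the neurosphere cells, with 6.46, 5.14 and 5.63 in cell_W2G, cell_W2O and cell_W6D and 10.75, 8.76 and 8.64 in cell_103L, cell_105M and cell_109B. Only cell_103L reached 20 copies and the gene was not counted. Fgfr4 was under the level in all 6 cells (2.52 to 4.47). Fgfr3 overlapped between the groups, at 12.48, 11.48 and 9.87 against 11.46, 11.60 and 12.29. Egfr, the receptor of EGF, was under the level in all 6 cells by its main probe set (6.24 to 8.48), whereas 2 other probe sets read 10.58 and 11.53 in cell_W2O. Of 10 listed receptors and ligands past the filter, 1 was counted as higher and none as lower.

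Some genes of glia and of the brain extracellular matrix were also higher. In the glial list, 22 of 26 genes passed the filter, 5 were counted as higher (Fabp7, Ptprz1, Glul, Tnc and Ntrk2) and none as lower. The means of 14 were higher and those of 8 lower, and the median difference was 1.08. The same 5 were counted without cell_103L and cell_W6D, where the median was 1.26. Leaving out cell_W2G alone lowered it to 0.54. The list also held genes that ran the other way in the mean. Nfix, a nuclear factor I gene tied to glial differentiation, had 2.499, 5.72 and 3.72 in the neurosphere cells and 10.99, 11.87 and 9.57 in the E12 cells, and Mlc1, a membrane protein of astrocytes, 0.73, 0.34 and 0.36 against 0.24, 6.62 and 8.59. Nfix was not counted since cell_109B lay under 20 copies. Mlc1 was under 20 copies in all 6 cells, and cell_103L lay below every neurosphere cell. The astrocyte genes proper, such as Gfap (2.67 to 4.50 in neurosphere cells) and Aldh1l1 (3.84 to 8.91), stayed under 20 copies in all 6 cells.

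Fabp7, the brain lipid-binding protein of radial glia, was the most even of these genes. Its signals were 13.78, 13.79 and 13.75 in cell_W2G, cell_W2O and cell_W6D, and 11.20, 11.02 and 11.25 in cell_103L, cell_105M and cell_109B. All 6 cells were over 20 copies, the ranges were narrow, and the fold was 6.12, with SDs between cells of 0.02 and 0.12. Fabp7 was over 20 copies in 11 of 30 E11 cells, 27 of 28 E16 cells and 4 of 4 cells given active Notch and p18.

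Among matrix genes, 24 past the filter had a median difference of 1.35, and Tnc, Ncan and Bcan were counted as higher and none as lower. Bcan encodes brevican, a proteoglycan of glia, and had 12.84, 12.99 and 11.89 in the neurosphere cells against 5.43, 4.57 and 6.04 in the E12 cells. This separation, at least 7.23-fold, was among the widest seen. Ncan, neurocan, had 13.15, 11.86 and 12.44 against 10.12, 10.18 and 5.37, at least 5.57-fold. Without cell_103L and cell_W6D the median of the list was 0.76, and Itga6 was counted in addition to these 3.

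Ptprz1, a receptor phosphatase of radial glia, shows how far 1 cell could weigh. It had 12.44, 11.86 and 12.87 in the neurosphere cells and 5.15, 11.74 and 9.96 in cell_103L, cell_105M and cell_109B. cell_W2O and cell_105M nearly met, and the minimum of 3.78-fold became 5.87-fold without cell_105M. Ednrb, the endothelin receptor, had 11.16, 11.68 and 12.26 against 1.04, 10.33 and 9.19, at least 3.42-fold.

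Olig1, a basic helix-loop-helix factor of the oligodendrocyte lineage and the ventral forebrain, was high in all 3 neurosphere cells. It had 12.74 in cell_W2G, 13.30 in cell_W2O and 13.64 in cell_W6D, and 5.69, 0.81 and 6.33 in the E12 cells, a difference of at least 11.4-fold. It reached 20 copies in 0 of 30 E11 cells and 1 of 28 E16 cells. Its partner Olig2 had 12.94 in cell_W2O and 13.39 in cell_W6D but 6.96 in cell_W2G, and so was not counted.

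The rest of the oligodendrocyte program belonged to 1 cell. Sox10, Pdgfra, Cspg4 and Gpr17 passed the filter through cell_W6D alone, so that their direction was bound to be upward. The ventral and oligodendrocyte list (8 of 22 genes past the filter, 2 counted as higher) had a median difference of 3.78, which was 0.98 without cell_W6D, 0.78 without cell_W6D and cell_103L, and 0.13 with no filter. Olig1 and Bcan were counted with and without these cells.

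Dorsal patterning genes, which set the cortical identity of the tissue, tended the other way in means, and none of 15 past the filter was counted as higher or lower. The median difference was -2.03, and it was -0.81 without cell_W6D and -0.41 without cell_W6D and cell_103L. Without both cells the means of 12 were lower, and Gli3 was counted as lower. Lhx2, a selector of cortical identity, was over 20 copies in all cells (12.32, 12.37 and 11.50 in cell_W2G, cell_W2O and cell_W6D against 12.66, 12.96 and 12.55). Pax6 and Emx2 were over 20 copies in cell_W2G (10.45 and 10.56) and cell_W2O (11.59 and 9.80) and not in cell_W6D. Neurog2, the proneural factor of the dorsal cortex, had 2.90, 3.43 and 3.86 in the neurosphere cells and 9.45, 12.03 and 8.80 in the E12 cells, of which only cell_105M reached 20 copies.

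On the lower side, Id4 and Mdk had the largest differences after the floor at the 20-copy level. Id4 inhibits basic helix-loop-helix factors and is a marker of APs, and it had 13.01, 13.05 and 13.20 in cell_103L, cell_105M and cell_109B. In the neurosphere cells it had 11.13 in cell_W2G, 4.68 in cell_W2O and 5.08 in cell_W6D, at least 7.44-fold lower. cell_W2G still held the transcript, and the other two did not at this level. Mdk, midkine, a secreted growth factor, had 12.28, 12.35 and 12.92 in the E12 cells and 9.10, 8.54 and 7.74 in the neurosphere cells. All 3 were under the level, at least 6.96-fold lower, although Mdk reached it in 29 of 30 E11 and 27 of 28 E16 cells. Of the cells given active Notch and p18, 2 of 4 reached it for Mdk.

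Plagl1, an imprinted zinc finger gene, had 13.27, 13.28 and 12.35 in the E12 cells against 11.66, 2.81 and 5.10 in cell_W2G, cell_W2O and cell_W6D, at least 6.08-fold lower. Cdon, a co-receptor of hedgehog ligands, had 13.27, 13.06 and 12.88 against 11.67, 6.14 and 5.91, at least 6.49-fold lower. In both, as for Id4, cell_W2G was the only neurosphere cell over 20 copies, and without it the minimum was 9.53-fold for Plagl1 and 10.2-fold for Cdon. The second probe set of Cdon had the opposite sign. Mest, another imprinted gene, which encodes a hydrolase-like protein, ran the other way, with 13.33, 13.61 and 13.14 in the neurosphere cells and 5.84, 10.41 and 8.62 in the E12 cells, at least 10.6-fold higher. It reached 20 copies in 21 of 30 E11 cells and 20 of 28 E16 cells.

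A list of 10 genes was drawn up as heterochronic, and some of them are known for high expression in young progenitors. The means of all 6 past the filter were lower in neurosphere APs, with a median difference of -3.06, but unevenly. Lin7a was under 20 copies in all 6 cells (1.08 to 3.68). Plagl2 had 9.40, 1.69 and 10.22 in the neurosphere cells against 9.05, 6.52 and 8.31, so that its mean was lower through cell_W2O alone. Only Mycn was counted. Mycn, a Myc family factor that drives growth and division, had 11.88, 10.14 and 11.23 in the E12 cells and 1.93, 3.67 and 2.47 in the neurosphere cells, at least 2.57-fold lower, or 1.95-fold and no longer counted without cell_103L. No neurosphere cell came near the 20-copy level. Hmga2, an architectural protein of chromatin that young stem cells express, had 11.94, 7.38 and 11.63 against 5.19, 4.72 and 3.62, and the low value of cell_105M kept it from being counted. Another Hmga2 probe set read the opposite way, at 10.18 in cell_W6D. Without cell_103L and cell_W6D, no gene of this list was counted and the median was -3.37.

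Genes of the cell cycle lay on both sides. Of 29 G1/S genes, 2 were counted as lower, none as higher, and the median difference was -0.27. It was -1.23 without cell_W2O, and without cell_103L and cell_W6D it was -0.01 with 3 genes lower. Mcm3, a subunit of the replicative helicase, had 12.53, 12.53 and 12.87 in the E12 cells against 11.13, 10.89 and 8.77 in cell_W2G, cell_W2O and cell_W6D, at least 4.18-fold lower, with 1 of its 4 other probe sets of opposite sign. Cdt1, which loads that helicase, had 12.55, 12.74 and 11.90 against 9.21, 11.50 and 11.42, at least 2.86-fold lower, or 1.91-fold and no longer counted without cell_W2G. None of 29 G2/M genes was counted (median -0.07), and without cell_103L and cell_W6D, 4 were lower. Among 23 genes of ribosome biogenesis, the means of 18 were lower and 5 higher, none was counted, and the median of -1.49 was -0.68 without cell_103L and cell_W6D.

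The promoters of 4 of these genes are shown, since Etv5, Tnc and Fabp7 stood among the higher genes of FGF response and glia and Id4 led the lower genes. They are RefSeq sequences of the build GRCm38.p6, 250 bases before to 50 after the start of transcription, for the most upstream start of each gene, written 5′ to 3′ on the strand of the gene. Etv5 lies at chr16:22439521-22439820 (minus strand), Tnc at chr4:64046966-64047265 (minus strand), Fabp7 at chr10:57784673-57784972 (plus strand) and Id4 at chr13:48260866-48261165 (plus strand). Capitals mark the letters GGGGCGG (the GC box) or GTGGGAA (bound by the Notch effector RBPJ), on either strand.
Etv5: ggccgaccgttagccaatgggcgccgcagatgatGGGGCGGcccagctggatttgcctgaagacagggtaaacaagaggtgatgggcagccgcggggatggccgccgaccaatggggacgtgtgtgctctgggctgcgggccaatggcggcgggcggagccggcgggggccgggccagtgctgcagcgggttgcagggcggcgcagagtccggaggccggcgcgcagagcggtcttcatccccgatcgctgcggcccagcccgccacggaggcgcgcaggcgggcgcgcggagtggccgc
Tnc: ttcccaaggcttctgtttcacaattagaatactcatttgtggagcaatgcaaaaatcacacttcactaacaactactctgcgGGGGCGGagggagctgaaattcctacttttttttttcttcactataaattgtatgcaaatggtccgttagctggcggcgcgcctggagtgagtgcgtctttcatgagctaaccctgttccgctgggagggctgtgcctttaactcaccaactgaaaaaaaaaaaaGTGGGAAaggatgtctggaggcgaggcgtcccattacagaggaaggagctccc
Fabp7: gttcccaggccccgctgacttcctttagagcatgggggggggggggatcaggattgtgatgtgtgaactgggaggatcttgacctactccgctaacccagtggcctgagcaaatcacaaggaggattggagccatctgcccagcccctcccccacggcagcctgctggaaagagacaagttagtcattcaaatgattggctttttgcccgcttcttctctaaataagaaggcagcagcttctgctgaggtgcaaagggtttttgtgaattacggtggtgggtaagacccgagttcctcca
Id4: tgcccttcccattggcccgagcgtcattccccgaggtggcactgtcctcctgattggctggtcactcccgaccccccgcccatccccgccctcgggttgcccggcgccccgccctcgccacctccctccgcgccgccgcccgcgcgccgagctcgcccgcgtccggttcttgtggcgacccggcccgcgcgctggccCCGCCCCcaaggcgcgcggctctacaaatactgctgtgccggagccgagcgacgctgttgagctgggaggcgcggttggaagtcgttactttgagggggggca
The other letters searched, on both strands, were CCGGAAG (bound by ETS factors), TGACTCA (AP-1) and CACGTG (the E-box of Myc), and none occurs in these 4 windows.

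Motif shares of the higher and lower genes lay close to those of all genes past the filter. CCGGAAG was in 21.1% of the 76 promoters of higher genes and 22.2% of the 90 of lower genes that the table held, against 19.2% of the 8822 promoters of genes past the filter and 9.14% of all 27025. TGACTCA was in 3.95% of the higher and 2.22% of the lower against 2.80% past the filter and 5.17% of all. CACGTG was in 7.89% and 13.3% against 10.3% and 7.24%. GGGGCGG was in 44.7% and 52.2% against 46.01% and 23.5%, and GTGGGAA in 7.89% and 8.89% against 6.01% and 6.38%. These are counts of letters and not of bound sites.

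Where the neurosphere cells stand on the axis from early to late APs was read from the 18 temporal-axis genes of the study, 9 of an E11 type and 9 of an E14 type. A temporal score was taken as the mean of the E14-type minus the mean of the E11-type genes, so that late cells score high. Signals under the 20-copy level were used as read, and only 1 to 5 of the 9 genes of a type reached it in each cell. The score was 4.99 in cell_W2G, 5.46 in cell_W2O and 1.59 in cell_W6D, and -2.58 in cell_103L, 5.51 in cell_105M and 0.25 in cell_109B. The mean of 4.01 (SD 2.11, n = 3) in neurosphere APs exceeded that of 1.06 (SD 4.11, n = 3) in E12 APs by 2.96, but the groups overlapped, and the E12 AP cell_105M scored above every neurosphere cell. Without cell_103L and cell_W6D the difference was 2.35, and with 1 cell left out at a time it ran from 1.14 to 5.18.

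E11 cells scored from -9.00 to -1.90 and E16 cells from 2.38 to 9.14. These cells of all types come from arrays with another scaling, and the E11 cells are among those on which the genes were chosen. cell_W2G and cell_W2O thus lay within the E16 range and cell_W6D just under it, and none lay within that of E11. Of the E12 cells, cell_103L lay within the E11 range, cell_105M within the E16 range and cell_109B between them.

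**Figure D4:**
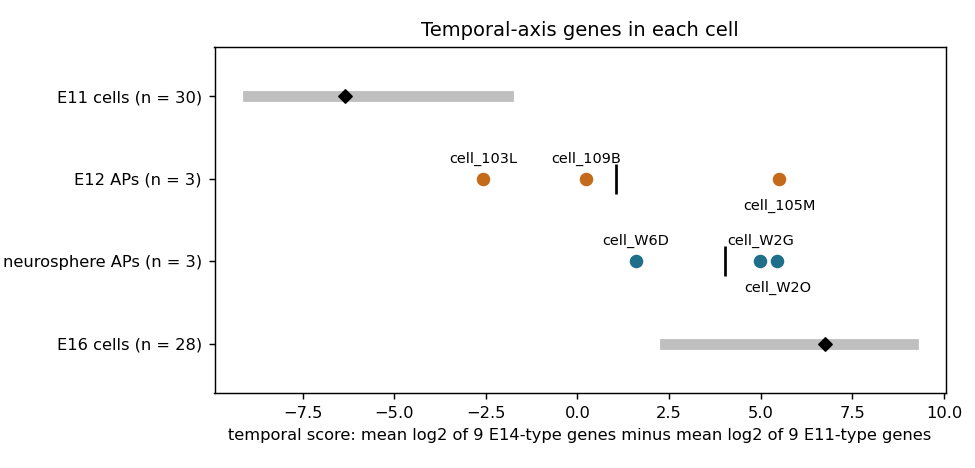
Temporal score (x axis, log2 units) of each E12 AP and neurosphere AP (points, with a black tick for the mean), with the range (grey bar) and median (diamond) of the E11 and E16 cells. The neurosphere APs sit between 1.59 and 5.46 and the E12 APs between -2.58 and 5.51, so the groups overlap.

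Single genes of the axis were mixed. Of the 9 E14-type genes, the means of 7 were higher in neurosphere APs, only Ednrb was counted as higher, and the median difference was 1.19. Ptn, a secreted growth factor, had 13.16, 12.95 and 12.69 against 11.18, 12.25 and 12.91, and Aldoc, a glycolytic enzyme of glia, 13.26, 12.98 and 12.58 against 12.03, 12.93 and 11.72, both with overlap. By its main probe set Zbtb20 was under 20 copies in all 6 cells (4.57 to 5.55 in neurosphere cells), and it reached that level in 12 of 28 E16 cells. Among its other probe sets, those over the level in any of the 6 cells read 10.12 and 9.91, both in cell_W2G. Adgrb3, an adhesion receptor, had 7.12, 10.86 and 9.23 against -1.36, 2.24 and 0.03, with only cell_W2O over 20 copies. Pag1, an adaptor of membrane rafts, had 11.99, 1.92 and 10.92 against 1.30, 9.23 and 3.07, and Rlbp1, a retinoid-binding protein, 12.06, 11.50 and 8.07 against 7.10, 10.98 and 7.71. Both overlapped between the groups, although Rlbp1 was counted as higher without cell_103L and cell_W6D. Those lower in the mean were Sema5a and Epha5, an ephrin receptor. Epha5 had 9.44, 2.94 and 2.91 against 3.10, 9.87 and 10.24. Sema5a had -1.57, 8.25 and -0.26 against 9.61, 8.28 and 9.95, with only cell_109B over 20 copies.

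Of the 9 E11-type genes none was counted, the means of 3 were higher, and the median was -1.62. Crabp2, a retinoic acid carrier that was over 20 copies in 28 of 30 E11 cells and 0 of 28 E16 cells, had 1.76, 0.99 and 0.17 in the neurosphere cells and 10.08, 9.26 and 11.40 in the E12 cells. It was far lower in every neurosphere cell. It was not counted since cell_105M lay under the level and the means, after the floor, lay less than 2-fold apart. Sulf2, a heparan sulfatase, went against its class, at 9.92, 10.59 and 10.57 in the neurosphere cells and 3.96, 4.46 and 2.54 in the E12 cells. The other 7 were at 20 copies in few of the 6 cells. Fndc3c1 had 2.43, 2.08 and 1.73 against 11.61, 1.42 and 10.24, and Dmrt3, a transcription factor of the dorsal telencephalon, 4.14, 2.64 and 3.13 against 4.82, 3.58 and 10.64. These were over 20 copies in E12 cells alone. Flrt3 reached it in cell_W6D (10.58), Chst2 in cell_109B (10.79), Lrrn1 in cell_103L (10.13) and Dmrta1 in none (at most 8.79). Tubb3, a neuronal tubulin, was over 20 copies in cell_105M (10.02) and just under it in cell_W2O (9.69) and cell_109B (9.68). The median of the E11-type genes depended on single cells, at 0.016 without cell_W2G and -4.06 without cell_105M.

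Notch signalling, which holds APs in the progenitor state, had 1 gene of 21 counted as higher and none as lower, with a median of -0.74. This median was -0.08 without cell_103L and cell_W6D, where Hey1 was counted as higher too, and turned to 0.11 without cell_109B. The gene counted in all 6 cells was Dner, a transmembrane Notch ligand, with 11.32, 11.97 and 11.88 in the neurosphere cells and 0.11, 2.22 and 3.65 in the E12 cells, at least 4.01-fold higher. All 3 neurosphere cells held it over 20 copies, as did 5 of 30 E11 and 3 of 28 E16 cells. So did 4 of 4 cells given active Notch and p18. The Notch target Hes5 had 12.19, 9.45 and 11.46 against 8.81, 5.51 and 11.42. Notch1 itself overlapped between the groups, at 11.46, 11.88 and 9.90 against 10.45, 11.61 and 9.75.

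The remaining genes with the largest differences belong to no single group. Rhoq, a small GTPase (at least 6.89-fold), Mt3, a metallothionein (at least 5.89-fold), Trib2, a pseudokinase (at least 5.47-fold), and Txndc17, a thioredoxin-like protein (at least 4.35-fold), were higher in neurosphere APs. For Mt3 the minimum was 3.83-fold without cell_W2G and 9.63-fold without cell_W6D. Those lower were Ubqln4 (at least 5.32-fold, with its second probe set of opposite sign), Fhl1 (at least 4.77-fold, or 8.07-fold without cell_109B), Nup62 (at least 4.48-fold), Skp1 (at least 4.29-fold), Arih2 (at least 4.03-fold), Tmem248 (at least 3.69-fold) and Vps29 (at least 3.63-fold). For Tmem248 and Vps29, 1 other probe set each had the opposite sign. That of Tmem248 read 10.02, 11.39 and 1.35 in cell_W2G, cell_W2O and cell_W6D against 3.66, 0.38 and 2.16, over 20 copies in both of the first. Over the 24 counted genes named here that have several probe sets, 36 of 41 other probe sets had the sign of the one used, and the 5 others were those of Cdon, Mcm3, Tmem248, Ubqln4 and Vps29. The same sign does not mean that a probe set met the counting rule. The other probe set of Bcan read 6.84 in cell_W6D, and that of Tnc 4.42 in cell_W2O. The other probe sets of Etv5 were under the level in all 6 cells.

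**Figure D5:**
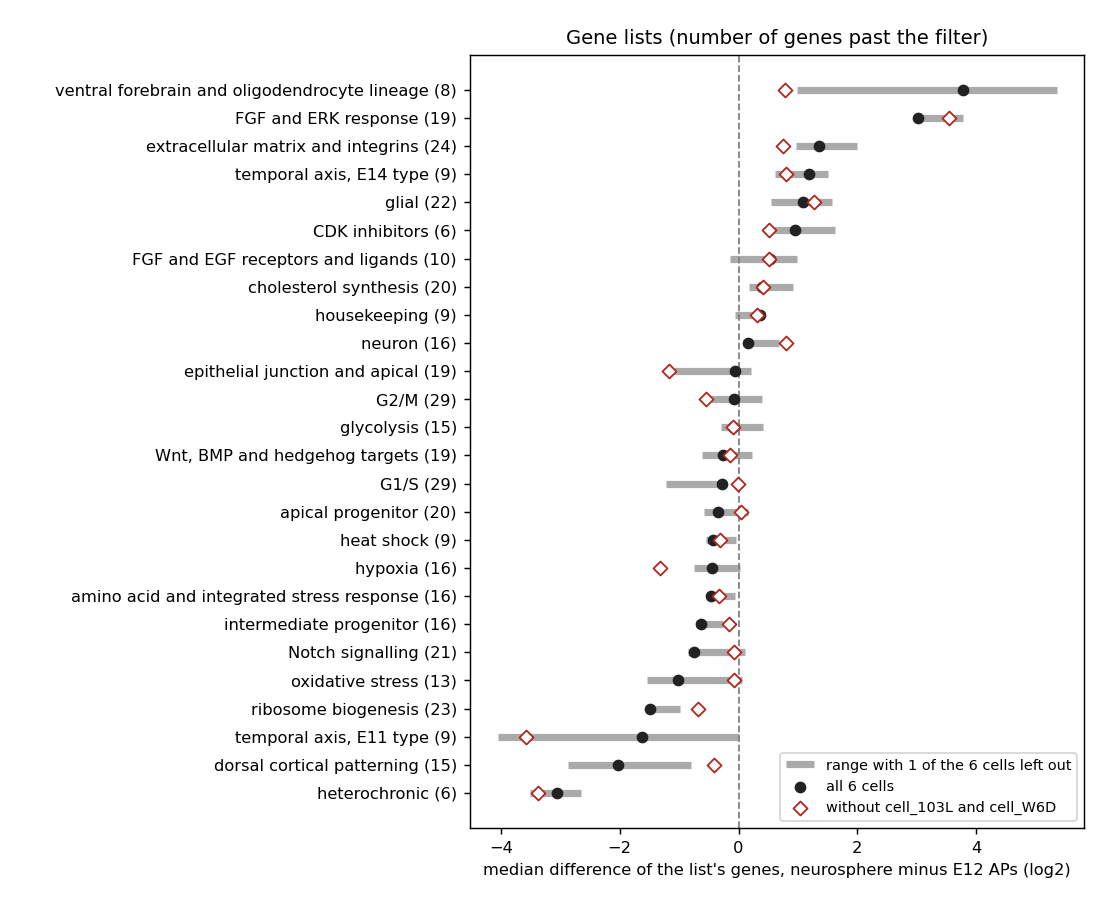
Median log2 difference, neurosphere minus E12 APs (x axis), of each gene list with at least 6 genes past the filter, with all 6 cells (black), without cell_103L and cell_W6D (red diamonds) and the range with 1 cell left out (grey bars). FGF and ERK response stays between 2.96 and 3.78. Without the 2 cells the ventral list moves from 3.78 to 0.78 and the dorsal list from -2.03 to -0.41.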

How the data were processed

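The authors deposited 1 array per cell, with linear MAS5 intensities of 45101 probe sets, made from amplified cDNA that had been labelled with biotin by in vitro transcription. The 68 arrays held no pair with identical values (0 of 2278). They were quantile normalized together, as the methods of the study name, and log2 transformed with no offset. Of the probe sets, 34958 had 1 gene symbol, 932 had several and 9211 had no entry. A probe set was kept if it reached a signal of 842 (the 20-copy level) in at least 1 of the 68 cells, which left 20721 probe sets and 10789 genes, and the probe set of highest mean stood for its gene. The number of arrays limits the precision.

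Cells were grouped by their labels. No significance test was made, since each group counts as 1 sample. Genes were counted as described in the report. The members and the gene lists were chosen with earlier results of these data known. Named are the 12 genes in each direction with the largest difference after the floor, up to 4 counted genes of each list, and, whatever their values, the AP selection markers, the 18 temporal-axis genes, Hmga2, the Fgfr and Egfr genes and 4 housekeeping genes; further genes were added after their values had been seen. Calculations used Python 3.11.15, numpy 2.4.6, pandas 2.3.3 and matplotlib 3.10.9, and the counting was tested on simulated data. Alternatives were other normalizations, filters, floors, offsets and probe sets and each cell left out. Leaving out cell_103L and cell_W6D was chosen after seeing the data.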

Additional observations from a re-analysis of the deposited data

How the results depend on the processing

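With each cell left out in turn, 133 to 231 genes were higher and 141 to 228 lower in neurosphere APs, and without cell_103L and cell_W6D 235 and 266, more than the 89 and 103 since fewer cells overlap less often. After scaling to the lys spike 146 genes were higher and 43 lower, and with no floor at the 20-copy level 514 and 561. The other settings gave 78 to 89 higher and 84 to 106 lower genes. Under no setting was a counted gene counted in the opposite direction. Where cells were left out this was bound to be so, since the cells that remain lie apart in the same direction. The difference in temporal score was 1.91 to 3.08 under the other settings.

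Among medians of gene lists, that of sex-linked genes turned from 1.09 to -0.28 with no filter and to -0.24 with the probe set chosen over the 6 cells, and ran from -0.23 (without cell_W6D) to 2.82 with 1 cell left out. That of oxidative stress turned from -1.01 to 0.0366 with an offset of 32 and ran from -1.54 to 0.060 (without cell_W2G), and that of the E11-type genes, at -1.62, ran from -4.06 to 0.016 (without cell_W2G). The cause was not tested. Of the values of named genes under these settings, 915 moved by less than 1 SD between cells and 21 by more.

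No paired analysis was possible because the replicate numbers were given in accession order and pair no cells. With 3 cells a group, 1 low signal is enough to keep a gene from being counted, and the spike at 20 copies was itself under the level in 3 of the 6 cells.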

Other observations

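Other gene lists had few or no counted genes. Cholesterol synthesis had a median difference of 0.40 over 20 genes, glycolysis -0.09 over 15 and heat shock -0.43 over 9. That of hypoxia was -0.45 over 16, and -1.32 without cell_103L and cell_W6D, with the means of 12 lower. CDK inhibitors had 0.95 over 6, and 0.51 without these cells. Oxidative stress had -1.01 over 13, but -0.07 without them, where Gsta4 and Cat were counted as higher. With all 6 cells Pkm, the pyruvate kinase gene, was the only gene counted in these lists, with 12.81, 12.20 and 12.32 in the E12 cells and 11.52, 11.23 and 11.47 in the neurosphere cells, 2.05-fold lower. It was not counted without cell_103L (1.81-fold), without cell_W2O (1.93-fold) or without cell_103L and cell_W6D. In serine and proline metabolism, Psph (12.53, 11.07 and 11.51 in the neurosphere cells against 10.35, 2.30 and 10.42) was at least 2.91-fold higher. Aldh18a1 (11.68, 4.46 and 10.63 against 12.13, 12.46 and 11.77) was at least 2.72-fold lower, or 1.95-fold and no longer counted without cell_W2O.

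Of the housekeeping genes, Gapdh had 13.43, 13.32 and 12.91 in the neurosphere cells against 13.51, 13.50 and 13.43, Actb by its main probe set 13.09, 12.92 and 11.77 against 10.09, 12.88 and 12.35, Aldoa 11.29, 10.91 and 9.11 against 9.995, 11.09 and 8.30, and Pabpn1 13.28, 13.06 and 13.02 against 12.56, 12.73 and 12.99. By other probe sets Actb met the rule as higher. These read 11.52, 11.17 and 12.45 against 9.48, 6.29 and 6.17, and 12.26, 11.84 and 12.78 against 10.82, 10.16 and 8.65. Hprt, a purine salvage enzyme, had 10.31, 11.08 and 11.35 against 9.64, 8.62 and 4.33, at least 2.29-fold higher, or 1.97-fold and no longer counted without cell_W6D. Cldn12, a tight junction gene, had 7.57, 4.35 and 0.65 against 11.93, 10.36 and 11.24, at least 2.75-fold lower. Xist differed within both groups, at 13.49, 4.45 and 11.90 in cell_103L, cell_105M and cell_109B and at 13.35, 6.39 and 6.41 in cell_W2G, cell_W2O and cell_W6D.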
